A study of Mus musculus with 28 samples.

Results

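The genes described here are 9 that mark naive and central memory T cells: Klf2, S1pr1, Ccr7, Tcf7, Lef1, Foxo1, Satb1, Bach2 and Id3. They were looked up by symbol, and all 9 were found among the 25124 genes of the expression table. All 9 also passed the filter on low values, as did 12182 genes in all. They were followed in lamina propria T cells of the small intestine, sorted as living cells positive for CD4, TCRb, CD90.2 and CD45. All mice carried the T-bet-ZsGreen reporter, a fluorescent read-out of the transcription factor T-bet. The mice were SPF, read here as specific-pathogen-free with a gut flora, or GF, read as germ-free. They received either aCD3, an antibody against the CD3 chains that signal for the T cell receptor, or its isotype control. There were 12 libraries from SPF mice, 6 with each antibody, and 16 from GF mice, 10 with isotype and 6 with aCD3, named by sex letter and number (F1, M3). Dose, time after injection and age were not used here.

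As background, naive and central memory T cells circulate between blood and lymphoid tissue, whereas cells resident in a tissue have given up much of that route. Foxo1 is a transcription factor held out of the nucleus by PI3K and Akt signalling, and it activates Klf2, which in turn activates S1pr1, the receptor for sphingosine 1-phosphate that lets T cells leave tissue. Ccr7 is the chemokine receptor that leads T cells to lymph nodes. Tcf7 and its relative Lef1 encode TCF1 and LEF1, the factors of the Wnt pathway that keep T cells in a long-lived state. Satb1 organises chromatin in T cells, Bach2 restrains effector genes, and Id3 blocks the DNA binding of E proteins.

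Values are TPM (transcripts scaled to a common total), in which the deposited table divides by a gene's whole genomic span with introns, so levels are compared between groups of 1 gene and not between genes. Libraries held 6765529 to 17860614 reads in genes. The members were covered by 34 to 1404 reads per library in the case of Ccr7 outside GF isotype, by 23 to 89 for Ccr7 in GF isotype and by only 2 to 61 for Id3. Histone genes took on average 5.25% of summed TPM with isotype and 25.4% with aCD3 in SPF, and 6.58% and 15.3% in GF. TPM is relative to that sum, and the median gene shifted by -0.35 on the log2 scale in SPF aCD3 against SPF isotype, and each effect is given with its value after scaling by median of ratios where that changed the call or the direction. All 8 CD4 T cell markers were present in each group, with a summed level of 1780 to 2330 TPM over the 28 libraries. The labels do not say that each library is a separate mouse, so p-values measure the spread between these libraries. In sorted bulk cells, fewer cells of a type and less RNA per cell cannot be told apart.

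The column names carry sample numbers. SPF libraries are numbered 1 to 12, and GF libraries fall into a run from 25 to 33 (6 isotype and 3 aCD3 libraries) and a run from 48 to 54 (4 isotype and 3 aCD3). What the numbers stand for is not stated. Since all SPF libraries share 1 run, colonisation and run cannot be told apart. Within GF aCD3, libraries differed sharply: Lag3, an inhibitory receptor of activated T cells, was at 498 TPM in M1, 452 in M2 and 527 in M5, against 9.59 in F1, 17.0 in M3 and 12.3 in M4. The latter 3 lay within the 5.41 to 18.5 TPM of GF isotype, although they carry the aCD3 label. They were kept under their label, and each member call that rests on them is given with its range over single libraries left out.

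Because Foxo1 and the TCF factors are themselves members, the promoters of the members were searched for their core motifs. RefSeq windows of 300 bases (250 before and 50 after a start, build GRCm38.p6) were found for 7 of 9 members, namely all but S1pr1 and Ccr7, with 15 windows in all. The FOXO core GTAAACA, read on both strands (reverse TGTTTAC), was in 1 of the 15, at an inner start of Tcf7, and in 3.6% of 32851 promoter windows of that length. The TCF and LEF core AACAAAG (reverse CTTTGTT) was in 2 overlapping windows of Satb1, and in 5.9% of all windows. For Klf2, the KLF core CACCC (reverse GGGTG) was in 12 of 15 windows, from Id3, Klf2, Lef1, Satb1 and Tcf7, and in 57.5% of all. For Id3, the E box CAGCTG was in 3 of 15 and 16.3% of all. No motif of Bach2 or Satb1 was searched. Several of the 15 windows belong to the same gene and some overlap, so they are not independent. The other TCF and LEF core searched, ATCAAAG (reverse CTTTGAT), was in 0 of 15 and in 3.7% of all. The 2 windows below are shown because their genes moved in opposite directions after aCD3, with the motif in capitals. A match of letters is a description and not a binding site. The Tcf7 window is chr11:52282546-52282845 on the minus strand, at a start inside the deposited gene, and the Satb1 window is chr17:51812005-51812304 on the minus strand, at the deposited start.
Tcf7: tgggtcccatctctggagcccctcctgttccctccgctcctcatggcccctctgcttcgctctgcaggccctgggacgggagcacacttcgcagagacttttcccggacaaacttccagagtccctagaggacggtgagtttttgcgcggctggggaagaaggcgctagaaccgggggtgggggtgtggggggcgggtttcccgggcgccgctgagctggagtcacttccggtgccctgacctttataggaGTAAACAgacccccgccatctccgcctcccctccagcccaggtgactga
Satb1: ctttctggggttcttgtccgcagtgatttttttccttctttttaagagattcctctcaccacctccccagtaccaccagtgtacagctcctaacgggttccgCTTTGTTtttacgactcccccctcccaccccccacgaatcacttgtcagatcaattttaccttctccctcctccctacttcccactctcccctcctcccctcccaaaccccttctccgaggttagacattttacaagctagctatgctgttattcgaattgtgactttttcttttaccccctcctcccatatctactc

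In SPF mice, aCD3 split the 9 genes: Ccr7, S1pr1 and Satb1 rose, Tcf7 and Foxo1 fell, and 4 did not pass the test. Ccr7 was 3.41-fold and S1pr1 2.08-fold as high as with the isotype, and Tcf7 was 2.74-fold lower. This comparison asks what engaging the T cell receptor complex does to these genes where a flora is present. With limma adjusted p under 0.05, 5 of 9 members passed, against 64.8% of all genes tested. By direction, 3 were higher against 14.2% of all genes, and 2 lower against 50.7%. In 4 members the groups did not overlap, against 41.9% of all genes, and 3 of these were higher, against 8.57%. Scaled by median of ratios, 4 of 9 passed, against 60% of all genes (30.2% higher and 29.8% lower). The shares of all genes by direction thus depend on the scaling. The members' median log2 fold change was -0.05, against -0.35 over all genes.

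**Figure D1:**
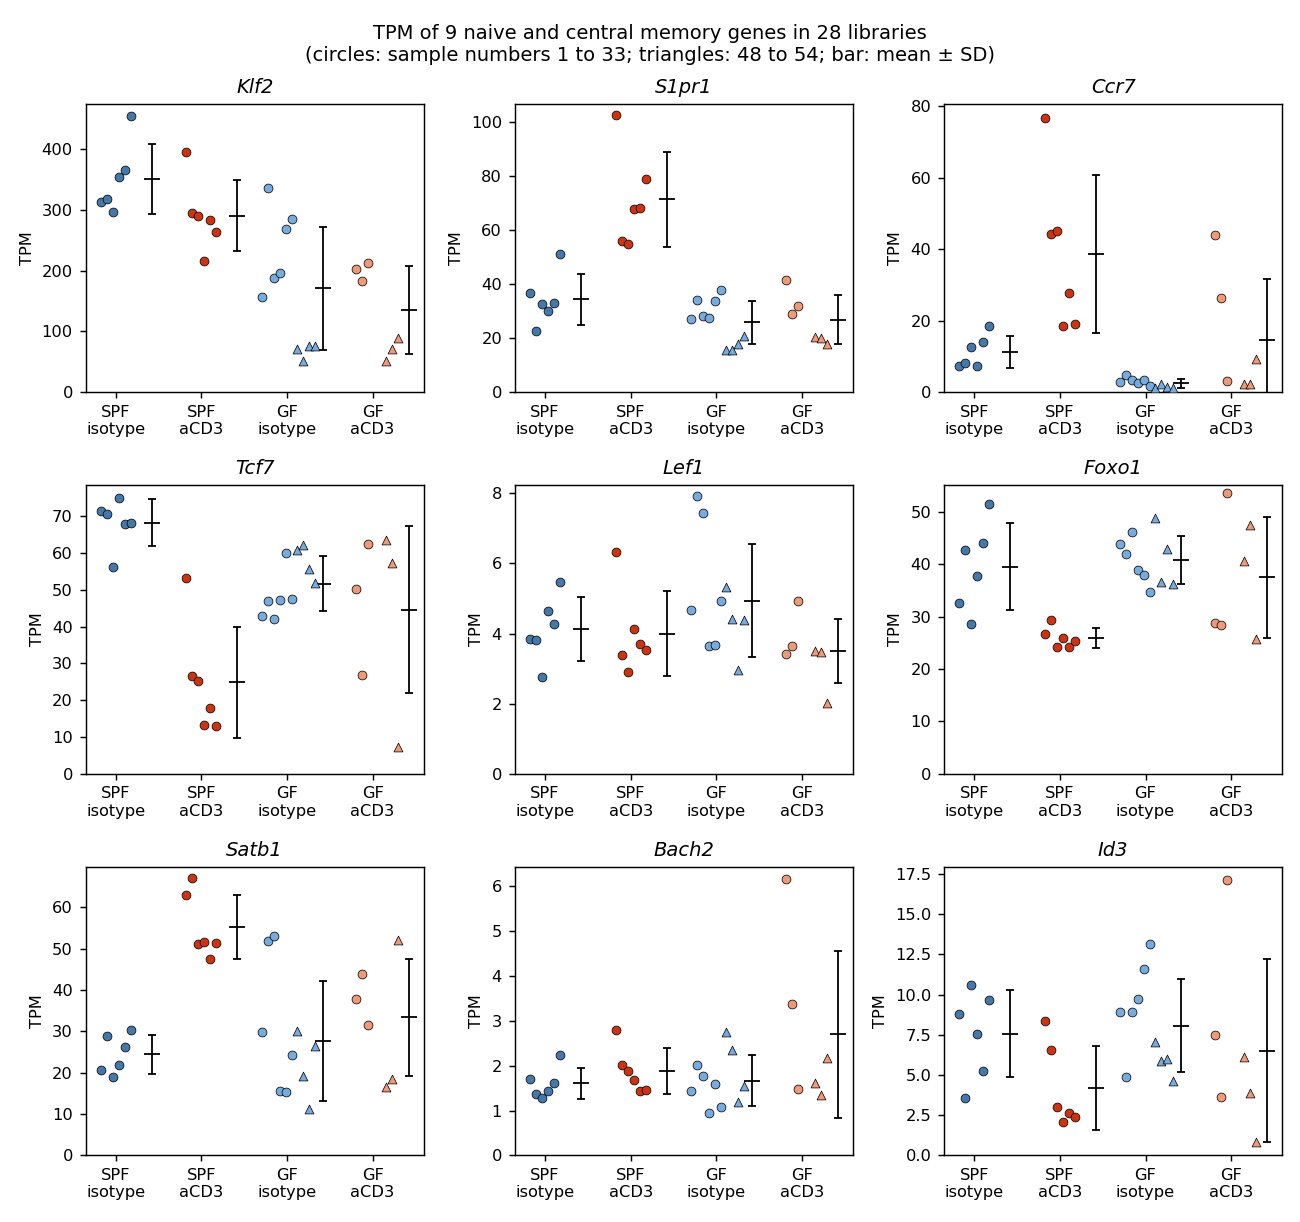
TPM of each of the 9 genes (y axis, linear from 0) in the 28 libraries by group (x axis). Points are libraries, circles for sample numbers 1 to 33 and triangles for 48 to 54, and bars give the mean ± SD. S1pr1, Ccr7 and Satb1 stand higher in all 6 SPF aCD3 libraries than in any SPF isotype library, and Klf2 is lowest in the GF triangles.

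Among the trafficking genes, Ccr7 (NM_007719, mm10 chr11:99144199-99155077, minus strand) was at 7.21 to 18.5 TPM in SPF isotype, with a median of 10.4. In SPF aCD3 it was at 18.6 to 76.8 TPM, with a median of 36.1. The groups touched without overlapping, since the lowest aCD3 library, M1, lay just above the highest isotype library, M3. Its mean went from 11.3 ± 4.56 (SD, n = 6) to 38.6 ± 22.1 TPM (n = 6), with a limma log2 fold change of 1.59 (SE 0.51, adjusted p = 0.00855). S1pr1 (NM_007901, chr3:115710433-115715055, minus strand) was at 22.6 to 51.2 TPM in SPF isotype (median 32.8) and at 54.8 to 102 TPM in SPF aCD3 (median 67.9). Every aCD3 library was above every isotype library, and the means were 34.3 ± 9.52 and 71.3 ± 17.6 TPM (n = 6 each), a change limma put at 1.04 on the log2 scale (SE 0.23, adjusted p = 0.000328).

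Klf2 (NM_008452, chr8:72319062-72321654, plus strand), the activator of S1pr1, did not pass the test. It was at 297 to 455 TPM in SPF isotype and at 217 to 396 TPM in SPF aCD3, where 5 of 6 libraries were below the lowest isotype library and F1 was not. The log2 fold change was -0.28 (SE 0.40, 95% CI -1.10 to 0.55, limma adjusted p = 0.557), and 0.14 when scaled by median of ratios. That SE pools the spread of all 28 libraries, among them GF isotype, where Klf2 ran from 51.98 to 337 TPM. Whether the effects on Klf2 and S1pr1 differ from each other was not tested.

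Of the TCF factors, Tcf7 (NM_001313981, chr11:52252283-52283014, minus strand) was at 56.3 to 75.1 TPM in SPF isotype (median 69.3) and at 13.1 to 53.3 TPM in SPF aCD3 (median 21.5). The highest aCD3 library, F1, was below the lowest isotype library, F3. The mean fell from 68.2 ± 6.41 to 24.9 ± 15.1 TPM (n = 6 each), a change limma put at -1.58 on the log2 scale (SE 0.35, adjusted p = 0.000352). Lef1 (NM_001276402, chr3:131110297-131224357, plus strand) was at 4.13 ± 0.916 and 3.99 ± 1.21 TPM (n = 6 each). Its log2 fold change was -0.05 (95% CI -0.43 to 0.33, limma adjusted p = 0.822), and its sign turned to 0.29 after scaling by median of ratios, also short of the threshold (adjusted p = 0.138).

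Foxo1 (NM_019739, chr3:52268337-52350109, plus strand) was at 28.7 to 51.6 TPM in SPF isotype (median 40.3) and at 24.1 to 29.4 TPM in SPF aCD3 (median 25.7). Only F2 with aCD3 reached above the lowest isotype library. The log2 fold change was -0.57 (SE 0.15, limma adjusted p = 0.0021), but -0.16 (adjusted p = 0.142) once scaled by median of ratios, so its fall did not exceed that of the median gene by a passing test. The 6 aCD3 libraries of Foxo1 were close together, with an SD of 1.94 TPM against 8.31 with the isotype.

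Satb1 (NM_001163630, chr17:51736187-51812054, minus strand) was at 18.9 to 30.4 TPM in SPF isotype (median 23.98) and at 47.5 to 67.0 TPM in SPF aCD3 (median 51.5). The groups were far apart, and the log2 fold change was 1.15 (SE 0.30, limma adjusted p = 0.00173). Bach2 (NM_001109661, chr4:32417435-32586108, plus strand) was at 1.60 ± 0.348 and 1.88 ± 0.505 TPM, a log2 fold change of 0.14 (95% CI -0.29 to 0.56, limma adjusted p = 0.572). The antisense gene Bach2os overlaps Bach2 by 11982 bases, and whether counting used strand is not given in the sources used here, so reads of the 2 genes cannot be told apart. Id3 (NM_008321, chr4:136143822-136145392, plus strand) was at 7.57 ± 2.71 and 4.17 ± 2.62 TPM, with at most 32 reads in any of the 12 libraries. Its log2 fold change was -0.79 (SE 0.38, limma adjusted p = 0.0724).

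**Figure D2:**
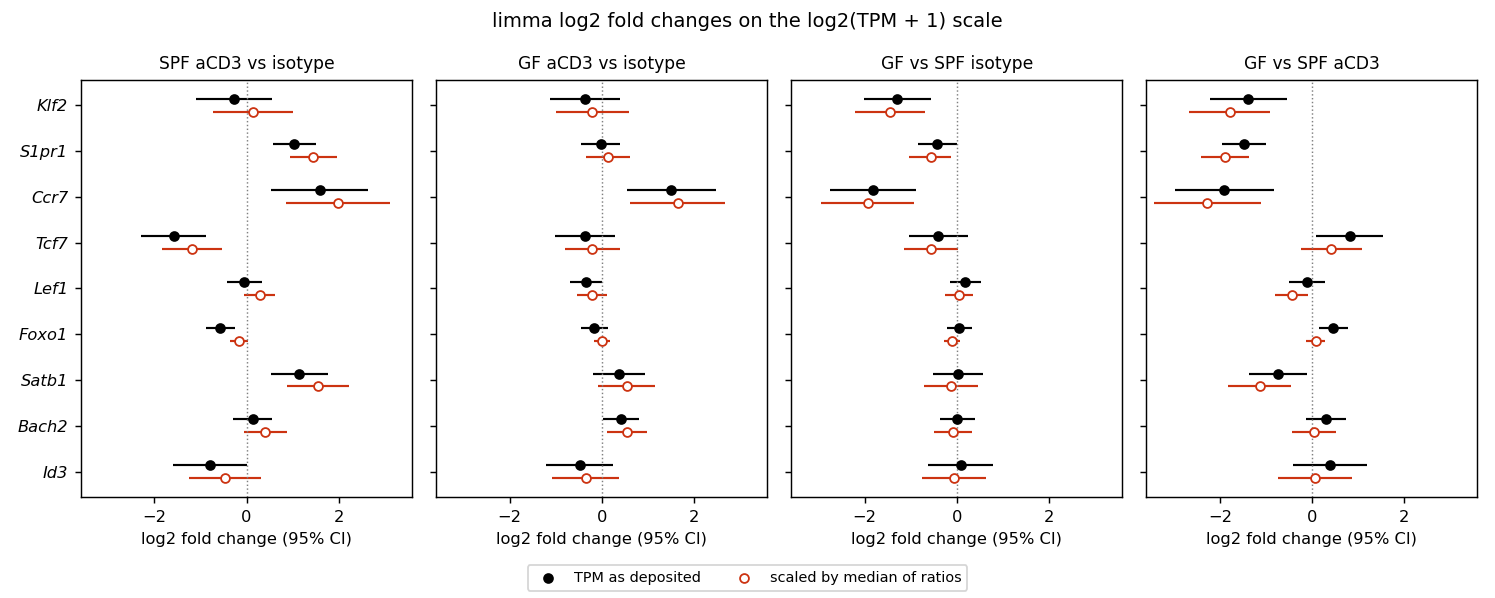
log2 fold change of each gene (x axis, with 95% confidence interval) in 4 comparisons, from limma on log2(TPM + 1). Filled points are TPM as deposited and open points TPM scaled by median of ratios. Scaling moves all SPF aCD3 effects to the right, so that Foxo1 goes from -0.57 to -0.16 while S1pr1, Ccr7 and Satb1 stay above 0 and Tcf7 below it.

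Library F1 of SPF aCD3 held the highest value of its group for 7 of the 9 genes (Tcf7, Lef1, Klf2, S1pr1, Ccr7, Bach2 and Id3). Without it, Ccr7 rose by 1.35 (limma adjusted p = 0.0280), S1pr1 by 0.90 (adjusted p = 0.00142), and Tcf7 changed by -1.80 (adjusted p = 0.000119), while Id3 passed the test at -0.99 (adjusted p = 0.0328). In SPF isotype, M3 was highest for 7 of the 9 and F3 lowest for 6. The 5 calls were kept with each of the 12 SPF libraries left out in turn.

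Within SPF aCD3, all females were above all males for 5 of the 9 genes (Ccr7, Tcf7, Klf2, Bach2 and Id3), a pattern seen in 13.4% of all genes tested. Ccr7 was at 76.8, 44.3 and 45.1 TPM in the females F1 to F3, and at 18.6, 27.8 and 19.0 TPM in the males M1 to M3. Tcf7 was at 53.3, 26.7 and 25.1 TPM in the females and at 13.3, 17.98 and 13.1 TPM in the males. A comparison added after these values were seen tested whether the aCD3 effect differed between the sexes within SPF. It gave -1.70 for Ccr7 (male minus female, limma adjusted p = 0.222), -1.21 for Tcf7 (adjusted p = 0.230) and -0.68 for Klf2 (adjusted p = 0.261). No member passed (0 of 9), against 0.0903% of all genes, so a sex difference in these effects was not shown over all genes.

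The genes around the members were read from lists of pathway genes, whose counts stand against 14.2% of all genes called higher and 50.7% called lower. After scaling by median of ratios, the shares of all genes were 30.2% higher and 29.8% lower, and scaled counts stand against these. Of 12 tested partners of the TCF factors and genes of the Wnt pathway, 12 fell in SPF aCD3 and 0 rose. Axin2, a feedback target of the pathway, fell from 11.4 ± 1.49 to 2.49 ± 0.351 TPM (n = 6 each), a change limma put at -1.82 on the log2 scale (SE 0.23, adjusted p = 1.71e-06). Tle4, a corepressor of TCF factors, changed by -1.52 (SE 0.22, adjusted p = 6.35e-06) and the receptor gene Lrp6 by -1.03 (SE 0.16, adjusted p = 9.96e-06). The list's median was -0.76 against -0.35 for all genes, and after scaling by median of ratios 9 of 12 were lower and 0 higher, with a median of -0.42 against -0.01.

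Of 17 tested genes of the FOXO pathway, 2 rose and 13 fell, with a median of -0.63 against -0.35 for all genes. The kinase genes Akt1 (0.53, SE 0.09, limma adjusted p = 2.44e-05) and Akt2 (0.28, SE 0.07, adjusted p = 0.000817) were those that rose. Pik3ip1, an inhibitor of PI3K, went from 20.0 ± 2.70 to 5.40 ± 1.34 TPM, a log2 fold change of -1.73 (SE 0.36, adjusted p = 0.000228), and the Foxo1 relative Foxo3 changed by -1.53 (SE 0.25, adjusted p = 1.93e-05). After scaling, 3 were higher and 10 lower (30.2% and 29.8% of all genes), with a median of -0.30 against -0.01.

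In the sphingosine phosphate pathway, 1 of 10 tested genes besides S1pr1 rose and 7 fell, with a median of -0.70, where 50.7% of all genes were lower. Cd69, whose product pulls S1PR1 off the cell surface, fell from 665 ± 75.4 to 222 ± 7.15 TPM, a change limma put at -1.57 on the log2 scale (SE 0.20, adjusted p = 1.94e-06). Sgpp1, a phosphatase of the lipid, changed by -1.18 (SE 0.19, adjusted p = 1.93e-05), and the G protein gene Gnai2 by 0.36 (SE 0.08, adjusted p = 0.000772). After scaling, 3 were higher, near the 30.2% of all genes, and 5 lower, against 29.8%, with a median of -0.31.

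Of 6 tested relatives of Klf2 in the KLF family, 5 fell and 0 rose, with a median of -1.30 against -0.35 for all genes, of which 50.7% were lower. The lowest were Klf4 (61.1 ± 18.4 to 9.76 ± 1.92 TPM, log2 fold change -2.49, SE 0.36, limma adjusted p = 6.28e-06), Klf3 (-2.02, SE 0.44, adjusted p = 0.000338) and Klf6 (-1.93, SE 0.22, adjusted p = 8.85e-07). After scaling, 1 was higher and 5 lower (30.2% and 29.8% of all genes), with a median of -0.92. The difference between Klf2 and these relatives was not itself tested.

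Of 25 other genes of naive and recirculating cells, 6 rose and 14 fell. The share that fell was near that of all genes (50.7%) and the share that rose was above it (14.2%), with a list median of -0.42 (-0.35 for all genes). The risers included Igfbp4 (1.03 ± 0.781 to 8.72 ± 6.73 TPM, log2 fold change 2.12, SE 0.30, limma adjusted p = 6.25e-06) and the costimulatory receptor gene Cd27 (1.93, SE 0.32, adjusted p = 2.28e-05). At the other end were Il7r, the receptor for the survival cytokine IL-7 (378 ± 76.5 to 33.7 ± 8.43 TPM, -3.46, SE 0.59, adjusted p = 3.13e-05), Btg2 (-2.11) and Klf3. After scaling, 10 were higher and 11 lower, both above the shares of all genes (30.2% and 29.8%), with a median of -0.12 against -0.01.

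Of 21 effector and tissue residency genes, 7 rose and 10 fell, and 7 and 7 after scaling. The 10 lower are near the 50.7% of all genes, and the median was -0.47 against -0.35. Gzmb, which encodes granzyme B, rose by 1.82 (SE 0.27, limma adjusted p = 7.59e-06), while Cxcr3 (-1.89, SE 0.29, adjusted p = 1.07e-05) and Cd44 (-1.59, SE 0.19, adjusted p = 1.09e-06) fell. Of 11 partners and opposing factors of Bach2, 3 rose and 7 fell (4 and 7 after scaling), with a median of -1.37. Prdm1, the factor opposed by Bach2, rose by 0.49 (SE 0.11, adjusted p = 0.000627) and Batf by 0.54 (SE 0.15, adjusted p = 0.00383), while Jun changed by -2.39 (SE 0.25, adjusted p = 4.85e-07). Of 4 E protein and Id genes, 0 rose and 2 fell (1 and 1 after scaling), with a median of -0.51: Tcf12 (-0.82, SE 0.13, adjusted p = 1.95e-05) and Id2 (-0.47, SE 0.11, adjusted p = 0.000542), of which Id2 was at -0.06 (adjusted p = 0.581) after scaling.

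Markers of other cells moved with aCD3 as well. The summed level of 7 B and plasma cell genes was 95.8 to 272 TPM in SPF isotype and 2.55 to 8.82 TPM in SPF aCD3, mostly Jchain. It was lower with aCD3, as Tcf7 and Foxo1 were, while Ccr7, S1pr1 and Satb1 were higher. Of 10 dendritic cell and macrophage genes, the sum was 12.8 to 21.2 TPM in SPF isotype and 59.1 to 111 TPM in SPF aCD3. That rise was carried by Cd68 (5.99 to 76.5 TPM on average). Xcr1 went from 8.78 to 5.62 TPM, Itgax from 1.24 to 0.289 and Lyz2 from 0.726 to 0.133 TPM on average, with Flt3, Clec9a and Adgre1 at or below 0.0257 TPM on average in both groups. Of 13 endothelial genes, whose cells also express Klf2 and S1pr1, only Pecam1 exceeded a mean of 1 TPM in any group, and their sum was 7.73 to 12.2 TPM in SPF isotype and 3.47 to 5.21 TPM in SPF aCD3, without overlap. The 2 CD8 T cell genes, of a cell type that also expresses these members, summed to 5.68 to 13.5 TPM (median 8.11) and 9.75 to 23.8 TPM (median 17.1), with overlap. The sum of 6 stromal genes was 4.42 to 42.1 TPM in SPF isotype and 0.467 to 2.28 TPM in SPF aCD3. Erythroid genes had medians of 7.41 and 0.882 TPM and epithelial genes 7.22 and 3.73 TPM. The part of these markers in the members' values was not tested.

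In GF mice, aCD3 moved Ccr7 past the threshold and none of the other 8 genes. That is 1 of 9, against 7.08% of all genes tested, and against 2.46% called higher. It was also 1 of 9 with median of ratios, against 9.65%. Groups without overlap were seen for 0 of 9 members and 0.0657% of all genes. Ccr7 was at 1.12 to 4.79 TPM in GF isotype, with a median of 2.33 (n = 10). In GF aCD3 it was at 43.9 TPM in M1, 26.4 in M2 and 9.39 in M5, above every GF isotype library, but at 2.24 in F1, 3.28 in M3 and 2.38 in M4, within the isotype range. The mean went from 2.45 ± 1.18 to 14.6 ± 17.1 TPM (n = 6), a change limma put at 1.51 on the log2 scale (SE 0.47, adjusted p = 0.0499). The call was lost with any of 13 of the 16 libraries left out, and the effect then ranged from 1.08 to 1.97 over all 16. With the sample-number run as a term it was 1.66 (adjusted p = 0.0186), and within the runs it was 2.33 (adjusted p = 0.311) and 0.95 (adjusted p = 0.734).

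The GF aCD3 libraries with high Ccr7 were those with high Lag3, and some other members parted along the same libraries. The share of all genes that part along them was not counted. Klf2, S1pr1, Lef1 and Id3 overlapped between them. Satb1 was at 37.7, 43.97 and 52.2 TPM in M1, M2 and M5 and at 16.45, 31.4 and 18.4 TPM in F1, M3 and M4. All 6 of these Satb1 values lay within GF isotype (11.1 to 52.95 TPM). Foxo1 was at 28.9, 28.4 and 25.9 TPM in M1, M2 and M5, all below the lowest GF isotype library (34.8 TPM), and at 40.7, 53.7 and 47.5 TPM in F1, M3 and M4. Bach2 was at 6.16, 3.38 and 2.18 TPM in M1, M2 and M5, of which the first 2 were above the highest GF isotype library (2.75 TPM), and at 1.61, 1.48 and 1.35 TPM in the others. Tcf7 was at 50.3, 26.8 and 7.30 TPM in M1, M2 and M5 and at 63.4, 62.4 and 57.2 TPM in F1, M3 and M4, while GF isotype ran from 42.1 to 62.1 TPM. In M5 alone Tcf7 was below every SPF aCD3 library, and the Id3 value of 0.850 TPM there rested on 2 reads.

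**Figure D3:**
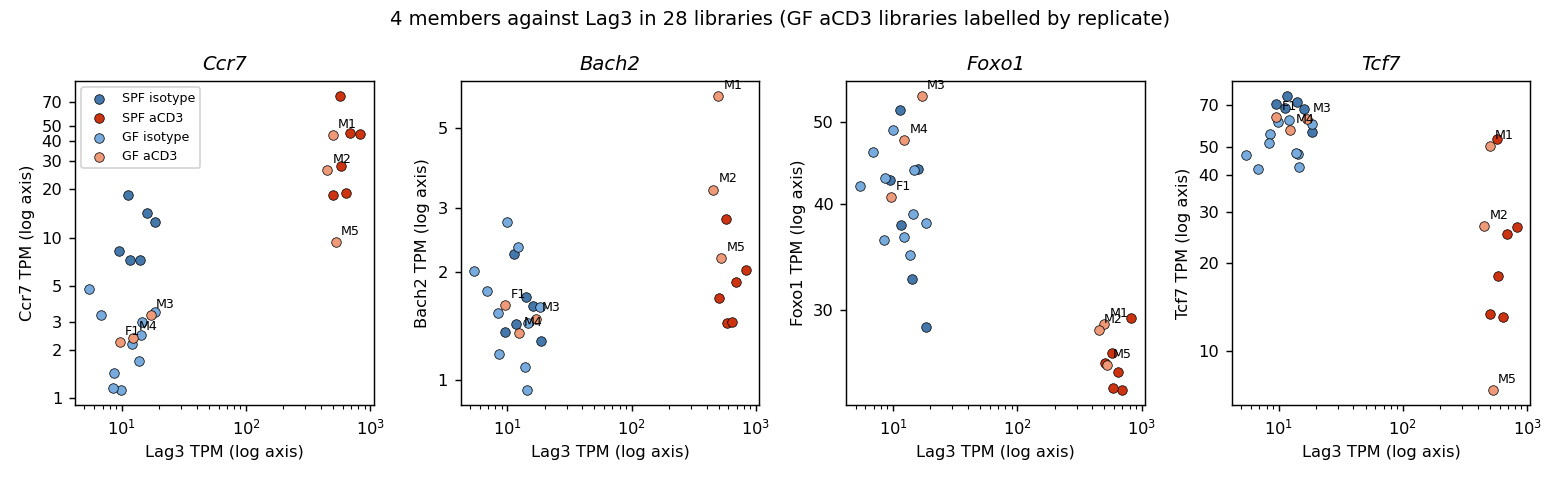
TPM of Ccr7, Bach2, Foxo1 and Tcf7 (y axes, log) against TPM of Lag3 (x axis, log) in 28 libraries, coloured by group, with GF aCD3 libraries labelled. M1, M2 and M5 have Lag3 at 452 TPM or above, and F1, M3 and M4 at 17.0 TPM or below, in the GF isotype range. Several points of M1, M2 and M5 lie outside the SPF aCD3 range, such as Ccr7 (9.39 TPM) and Tcf7 (7.30 TPM) in M5 and Bach2 (6.16 TPM) in M1.

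No average over either set of libraries is given, since the labels do not part them. Il10, an anti-inflammatory cytokine, was at 404, 588 and 630 TPM in M1, M2 and M5 and at 93.5, 109 and 141 TPM in F1, M3 and M4. Mki67, a marker of cycling cells, was at 368, 447 and 311 TPM against 46.5, 160 and 67.6 TPM. Markers of other cells parted there too: dendritic cell and macrophage genes summed to 63.7, 64.3 and 70.3 TPM in M1, M2 and M5 and to 25.3, 41.3 and 34.2 TPM in F1, M3 and M4. B and plasma cell genes summed to 6.67, 8.29 and 7.28 TPM against 19.4, 97.7 and 30.6 TPM, and epithelial genes to 6.45, 6.26 and 5.45 TPM against 26.3, 9.51 and 20.3 TPM. Endothelial genes summed to 5.10, 4.75 and 3.71 TPM against 14.5, 10.2 and 10.4 TPM, and CD8 T cell genes to 13.0, 9.59 and 12.8 TPM against 3.47, 5.53 and 7.56 TPM. Stromal genes summed to 0.826, 0.501 and 0.873 TPM against 2.87, 1.30 and 1.18 TPM, and the CD4 T cell genes themselves to 1970, 1800 and 1830 TPM against 2210, 2070 and 2170 TPM. These 7 lists parted without overlap, while erythroid genes overlapped. Their part in the members' values was not tested.

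The effects of the other members in GF were small or uncertain by limma. S1pr1 was at 25.8 ± 8.03 TPM in GF isotype (n = 10) and 26.7 ± 9.06 TPM in GF aCD3 (n = 6), a log2 fold change of -0.02 (95% CI -0.45 to 0.41, adjusted p = 0.949), and of 0.14 after scaling by median of ratios. Satb1 was at 27.7 ± 14.5 and 33.4 ± 14.1 TPM (0.38, 95% CI -0.19 to 0.95, adjusted p = 0.313). Tcf7 changed by -0.36 (95% CI -1.02 to 0.30, adjusted p = 0.419), Klf2 by -0.37 (95% CI -1.13 to 0.39, adjusted p = 0.479) and Lef1 by -0.34 (95% CI -0.69 to 0.01, adjusted p = 0.149). Foxo1 changed by -0.16 (95% CI -0.44 to 0.13, adjusted p = 0.425; 0.01 after scaling) and Id3 by -0.48 (95% CI -1.21 to 0.25, adjusted p = 0.326). Bach2 changed by 0.43 (95% CI 0.04 to 0.82, adjusted p = 0.112), and it passed with F1, M3 or M4 of GF aCD3 left out.

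In GF, 2.46% of all genes were called higher and 4.61% lower, with a median of -0.15. These calls and those below were lost with any of 13 of the 16 libraries left out: limma then called 0 genes in all, with 2535 to 4318 at an unadjusted p under 0.05. In the lists, 0 of 25 other naive genes rose and 2 fell, Il7r (301 ± 176 to 141 ± 155 TPM, log2 fold change -1.77, SE 0.55, limma adjusted p = 0.0499) and Sesn1 (-0.74, SE 0.20, adjusted p = 0.0481). Of the FOXO pathway, Akt1 (0.27, adjusted p = 0.0499) and Akt2 (0.22, adjusted p = 0.0481) rose and Sgk1 fell (-0.73, adjusted p = 0.0481; 0.0502 after scaling). Cd69 fell by 0.69 on the log2 scale (603 ± 91.9 to 401 ± 180 TPM, limma adjusted p = 0.0481), and 1 of 12 TCF and Wnt genes fell, Axin1 (-0.42, adjusted p = 0.0488). Of 6 KLF genes, 0 rose and 2 fell, Klf4 (-1.13, limma adjusted p = 0.0484) and Klf6 (-0.91, adjusted p = 0.0481), with a list median of -0.59. Of 11 Bach2 partners, 0 rose and 3 fell, Jun (-0.83, adjusted p = 0.0481), Maff (-0.79, adjusted p = 0.0481) and Bach1 (-0.55, adjusted p = 0.0484), with a list median of -0.54. Of 21 effector genes, 0 rose and 3 fell (Cxcr3, Cd69 and Rgs1), and of 4 E protein and Id genes 0 passed.

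Whether the aCD3 effect differed between GF and SPF was tested as an interaction. None of the members passed (0 of 9 by limma, with 2 of 9 at an unadjusted p under 0.05), against 3.48% of all genes, with 2.44% called higher. S1pr1 was nearest, with an effect lower by 1.06 in GF than in SPF (log2 scale; -1.06, SE 0.31, 95% CI -1.70 to -0.43, adjusted p = 0.0511). It passed under 7 other settings, among them median of ratios (-1.31, adjusted p = 0.0212) and the GF run as a term (-0.97, adjusted p = 0.0162). The interaction for Tcf7 was 1.22 (95% CI 0.25 to 2.19, adjusted p = 0.0916), and 1.62 (adjusted p = 0.00314) without GF aCD3 M5. For Ccr7 it was -0.07 (95% CI -1.50 to 1.35), an interval too wide to show that the effects were alike.

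Without aCD3, GF cells held less Ccr7 and less Klf2 than SPF cells. This comparison asks what the flora changes in resting animals. Ccr7 was 4.61-fold and Klf2 2.05-fold higher in SPF isotype. The 2 genes that passed (2 of 9) compare with 7.17% of all genes, and with 0.755% of all genes called lower in GF. No member was called higher (0 of 9), against 6.42%. With median of ratios 2 of 9 passed, against 1.67% of all genes. Markers of other cells differed as well. B and plasma cell genes summed to 95.8 to 272 TPM in SPF isotype and 11 to 114 TPM in GF isotype, stromal genes to 4.42 to 42.1 and 0.384 to 2.82 TPM without overlap, and erythroid genes to medians of 7.41 and 1.64 TPM. Dendritic cell and macrophage genes went the other way, with medians of 17.0 and 32.6 TPM, as did epithelial genes, with 7.22 and 14.2 TPM. CD8 T cell genes had medians of 8.11 and 2.90 TPM, though GF isotype M4 reached 61.2 TPM. Endothelial genes had medians of 10.0 and 10.3 TPM. Most of that sum was Pecam1 (9.52 and 8.04 TPM on average). The other endothelial genes, all below 1 TPM on average, were higher in GF isotype, such as Esam (0.047 and 0.319 TPM) and Kdr (0.0172 and 0.169 TPM). The part of these markers in the result was not tested.

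Ccr7 in GF isotype (1.12 to 4.79 TPM, n = 10) lay below SPF isotype (7.21 to 18.5 TPM, n = 6) in 10 of 10 libraries. The log2 fold change was -1.83 (SE 0.45, limma adjusted p = 0.0178), and groups that did not overlap with GF lower were seen in 0.238% of all genes, with GF higher in 2.39%, and in either direction in 2.63%. The call was kept with each of the 16 libraries left out (adjusted p 0.0199 to 0.0494). Against the GF libraries numbered 25 to 33 alone the value was -1.54 (adjusted p = 0.00567), and against those numbered 48 to 54 it was -2.26 (adjusted p = 0.00696). These 2 fits were added after the data were seen.

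Klf2 was at 297 to 455 TPM in SPF isotype (median 337) and at 51.98 to 337 TPM in GF isotype (median 172). GF F2, at 337 TPM, was the only GF library inside the SPF range. The log2 fold change was -1.29 (SE 0.36, limma adjusted p = 0.0298), and the call was lost without SPF isotype F1, F3, M2 or M3 or without GF isotype F4 (adjusted p 0.0502 to 0.0699). By run it was -0.59 (adjusted p = 0.0430) for GF numbers 25 to 33 and -2.33 (adjusted p = 6.86e-06) for 48 to 54. S1pr1 changed by -0.42 (SE 0.20, adjusted p = 0.193), and Tcf7 by -0.40 (95% CI -1.04 to 0.24, adjusted p = 0.430), although 7 of 10 GF libraries were below the lowest SPF library for Tcf7. For the other 5 members the log2 fold changes were between 0.01 and 0.19 and none passed, and those of Bach2, Id3, Foxo1 and Satb1 turned below 0 after scaling by median of ratios. In the lists, 0 of 25 other naive genes and 0 of 12 TCF and Wnt genes passed, while Id2 (0.46, SE 0.10, adjusted p = 0.00501) and Tbx21, which encodes T-bet (0.47, SE 0.13, adjusted p = 0.0327; 0.31, adjusted p = 0.0974 after scaling), were higher in GF. Jun (-1.42, SE 0.23, limma adjusted p = 0.000624) and the Klf2 relative Klf7 (-0.45, SE 0.14, adjusted p = 0.0494) were lower, also after scaling.

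The 2 runs of GF isotype libraries differed in the trafficking genes. In a comparison added after the data were seen, the libraries numbered 48 to 54 were compared with those numbered 25 to 33. Klf2, S1pr1 and Ccr7 passed and the other 6 members did not, which is 3 of 9 against 10.3% of all genes. Klf2 was at 156, 188, 196, 269, 285 and 337 TPM in the earlier numbers and at 51.98, 71.3, 76.7 and 76.7 TPM in the later ones. No library of one run reached the other, and the log2 fold change was -1.74 (SE 0.21, limma adjusted p = 0.00263). S1pr1 was at 27.04 to 37.9 TPM and at 15.8 to 20.7 TPM (-0.80, SE 0.10, adjusted p = 0.00339), also without overlap. Ccr7 was at 1.71 to 4.79 TPM and at 1.12 to 2.18 TPM (-0.71, SE 0.18, adjusted p = 0.0398), with overlap. After scaling by median of ratios these were -1.78, -0.84 and -0.70, and each still passed. The share of all genes without overlap between the 2 runs was not counted.

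**Figure D4:**
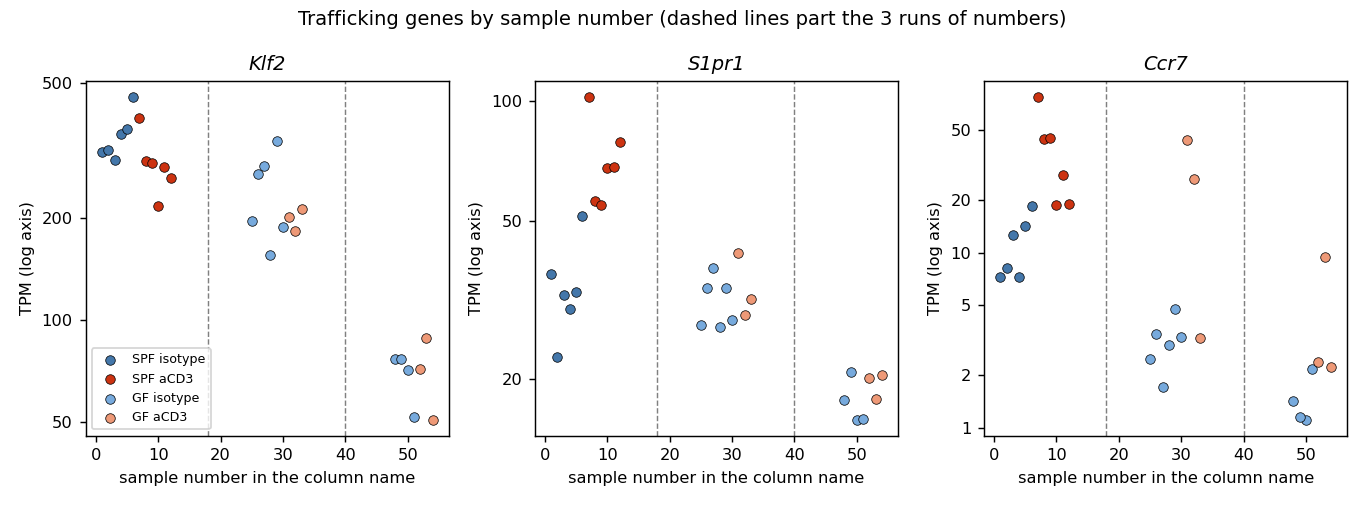
TPM (y axis, log) of Klf2, S1pr1 and Ccr7 against the sample number in the column name (x axis), coloured by group, with dashed lines between the 3 runs of numbers. In the run from 48 to 54, Klf2 lies at or below 88.9 TPM in all 7 libraries, isotype and aCD3 alike.

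In GF aCD3 the run difference was not tested, and its values are given. Klf2 was at 202, 183 and 213 TPM in GF aCD3 M1, M2 and M3 (numbers 31 to 33), and at 50.9, 71.7 and 88.9 TPM in F1, M4 and M5 (numbers 52 to 54). S1pr1 was at 41.4, 28.9 and 31.7 TPM against 20.4, 20.1 and 17.8 TPM. For these 2 genes no library of one run reached the other, although Lag3 was high in M5 and low in M3. The share of all genes that part this way between so few libraries was not counted. Ccr7 was at 43.9, 26.4 and 3.28 TPM against 2.24, 2.38 and 9.39 TPM, with overlap. Endothelial markers summed to 7.26 to 10.6 TPM in the earlier and 10.6 to 14.9 TPM in the later isotype libraries, and B and plasma cell markers to 16.4 to 114 and 11 to 26.2 TPM. Their part in the run difference was not tested.

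After aCD3, the trafficking genes were lower in GF than in SPF. S1pr1, Ccr7, Klf2 and Satb1 were lower and Foxo1 was higher. With 5 of 9 members past the threshold, this compares with 53.3% of all genes, and the 4 lower ones with 4.46% of all genes called lower and the 1 higher with 48.9%. Scaled by median of ratios, 32.7% of all genes passed, 16% higher and 16.7% lower, so these shares depend on the scaling. Foxo1 then no longer passed and Lef1 did. The comparison shares its SPF and GF aCD3 libraries with those above and is not independent of them. The calls fell to 3 of 9 with only the groups compared (S1pr1, Klf2 and Satb1) and to 1 of 9 with array weights (S1pr1, -1.36, limma adjusted p = 0.00362). Markers of other cells differed here too: B and plasma cell genes summed to 2.55 to 8.82 TPM in SPF aCD3 and 6.67 to 97.7 TPM in GF aCD3, epithelial genes had medians of 3.73 and 7.98 TPM, and dendritic cell and macrophage genes had medians of 83.7 and 52.5 TPM. CD8 T cell genes had medians of 17.1 and 8.57 TPM, endothelial genes 4.64 and 7.65 TPM, erythroid genes 0.882 and 1.83 TPM and stromal genes 1.90 and 1.02 TPM. The dendritic cell and macrophage difference was carried by Cd68 (76.5 and 29.9 TPM on average). All others of that list but Fcgr1 (0.0565 and 0.052 TPM) were higher in GF aCD3, such as Xcr1 (5.62 and 17.9 TPM). The stromal difference was carried by Lum (1.33 and 0.156 TPM), while Col1a1 (0.263 and 0.611 TPM) and the other stromal genes were higher in GF aCD3. The part of these markers in the result was not tested.

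S1pr1 was at 54.8 to 102 TPM in SPF aCD3 and at 17.8 to 41.4 TPM in GF aCD3 without overlap, a difference limma put at -1.48 on the log2 scale (SE 0.23, adjusted p = 0.00015). Klf2, at 217 to 396 TPM and 50.9 to 213 TPM, did not overlap either (-1.38, SE 0.41, adjusted p = 0.00793). With single libraries left out, S1pr1 ranged from -1.60 to -1.37 (adjusted p up to 0.00107) and Klf2 from -1.53 to -1.10 (adjusted p up to 0.0452, without GF aCD3 F1), and both passed each time. Groups in which GF was lower without overlap made up 0.780% of all genes. Ccr7 changed by -1.90 (SE 0.52, adjusted p = 0.00463), with GF M1 and M2 inside the SPF range and F1, M3 and M4, the libraries with low Lag3, at 2.24 to 3.28 TPM. With single libraries left out it ranged from -2.34 to -1.44 and passed each time (adjusted p up to 0.0328, without GF aCD3 F1). Restricting GF aCD3 to numbers 48 to 54 gave -1.80 for S1pr1 (adjusted p = 0.0282) and -2.03 for Klf2 (adjusted p = 0.0282), while with numbers 25 to 33 alone 0 of 9 members passed (S1pr1 -1.06, adjusted p = 0.0702; Klf2 -0.34, adjusted p = 0.170).

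Satb1 changed by -0.74 (SE 0.31, limma adjusted p = 0.0466), a call lost with any of 8 of the 12 libraries left out (-0.89 to -0.43, adjusted p up to 0.252), while -1.13 (adjusted p = 0.0130) was found with median of ratios. Foxo1 changed by 0.47 (SE 0.15, adjusted p = 0.0133) but by 0.08 (adjusted p = 0.569) after scaling, when the median of all genes, 0.34, is removed. Of the GF aCD3 libraries only F1, M3 and M4 were above SPF aCD3 for Foxo1, while M1, M2 and M5 were inside its range. With single libraries left out it ranged from 0.37 to 0.56 (adjusted p up to 0.0451). Tcf7 was at 0.82 (95% CI 0.09 to 1.55, adjusted p = 0.0544). Lef1 was at -0.11 (95% CI -0.50 to 0.28) and passed after scaling (-0.44, adjusted p = 0.0479). Of 12 TCF and Wnt genes, 11 were higher in GF than in SPF after aCD3 and 0 lower (48.9% and 4.46% of all genes). After scaling, 6 were higher and 1 lower (16% and 16.7% of all genes).

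The genes most like each member over the 28 libraries were named by the root mean square difference of z-scored log2(TPM + 1), which is 0 for equal patterns. For Ccr7 the nearest was Cxcr5 (0.38), another receptor for lymphoid homing, against a median of 1.77 over 12181 other genes. For Tcf7 they were Ltb (0.43) and Pecam1 (0.53), and for Satb1 Il2ra (0.42), the high-affinity IL-2 receptor chain, and Ctla2a (0.44). For Foxo1 they were Fbxo34 and Zeb1 (0.31 each), for S1pr1 Actn1 (0.59) and Cxcr4 (0.61), and for Lef1 Ugcg (0.55) and Coil (0.71). The gene nearest to Klf2 of all was S1pr1 (0.73, rank 1 of 12181), followed among non-members by Utp3 (0.75) and Tmem176b (0.77). For Bach2 the nearest was its antisense partner Bach2os (0.44), then Eef1g (0.80), and for Id3 Zswim7 (0.70) and Utp18 (0.71). The 28 libraries share the groups and runs described above, so these likenesses are descriptions.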

How the data were processed

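RNA of sorted small intestinal CD4+ T cells was made into libraries with a total RNA kit, per the labels, and their molecule field reads polyA RNA. The authors deposited 1 table of TPM for 25124 genes, made with HOMER's analyzeRepeats.pl over RefSeq transcripts of mm10 with transcripts condensed per gene and the TPM option, per the file headers. The aligner's settings and the use of strand are not given in the sources used here. The deposited length column equals the genomic span in 99.2% of rows, so TPM was divided by exons and introns together. A further 26 TPM columns match no sample and were not used. Whole reads were recovered from TPM and length: 100% of values under 50 reads were whole within 0.02 read. These served as an alternative with voom, and counting error alone is what they show. No libraries were identical (0 pairs).

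Genes with TPM of at least 1 in at least 6 of 28 libraries were tested with limma 3.58.1 in R 4.3.3 on log2(TPM + 1), with group means, a sex term and a mean trend, two-sided, adjusted by Benjamini-Hochberg over 12182 genes within each of 5 comparisons. Log2 fold changes on that scale understate the change of low genes. In the 5 comparisons the spread of a gene was pooled over all 28 libraries. A wide spread within GF therefore also widens the SE of comparisons within SPF. Data were simulated for SPF aCD3 against isotype over 12425 genes, of which 12225 were unchanged. With 50 genes at each true fold, 98% were called at 4, 96% at 2, 90% at 0.5 and 98% at 0.25. Of the unchanged genes, 0.0736% were called. In the libraries themselves, 64.8% of all genes were called in that comparison. Whether the simulated rates hold for the libraries was not tested. All 9 members are described. From each pathway list, up to 3 genes with the highest and up to 3 with the lowest change past the threshold could be named, plus Il10, Lag3 and Mki67, and for each member the 2 nearest other genes with a mean of at least 5 TPM in a group. One gene that this rule names is not reported here. Members, lists and tests were chosen with earlier results of these data known. Alternatives were pseudocounts of 0.1 and 5, no filter or a TPM of at least 5, median of ratios scaling, TPM without Rn45s and 69 histone genes, voom, only the groups compared, no sex term, array weights, a replicate block, the sample-number run, and each library left out.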

Additional observations from a re-analysis of the deposited data

Results flagged for a closer look

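Tcf7 in SPF isotype replicate F3 stood apart from the rest of its group. It was at 56.3 TPM, against 67.8 to 75.1 TPM in the other 5 libraries, and on the log2(TPM + 1) scale its gap to the nearest of them was 0.65 of the group's range, above Dixon's critical value of 0.625. On the TPM scale the gap was 0.61 of the range, below that value. Of 36 sets of member and group that were checked, 1 was marked, where chance gives about 1.8. F3 was also the lowest SPF isotype library for 6 of the 9 genes, and Rn45s took 22.9% of its summed TPM. Without it, Tcf7 still fell in SPF aCD3 by 1.67 on the log2 scale.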

How the results depend on the processing

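Over 548 member effects under settings other than a left-out library, 458 kept their direction and side of the threshold, 32 lost the call, 17 gained it and 41 changed sign. Over 756 with a library left out, these were 679, 26, 16 and 35.

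The number of members past the threshold in SPF aCD3 against isotype was 5, with 4 under median of ratios and voom and 6 with array weights or only the groups compared. In GF aCD3 against isotype it was 1, and became 0 with a pseudocount of 0.1 or 5, without the low-value filter, without Rn45s and histone genes, with voom, with only the groups compared, and within numbers 25 to 33 or 48 to 54, but 2 with array weights. Between isotype groups it was 2, and 3 with only the groups compared or with either run of GF numbers alone. In GF against SPF aCD3 it was 5, and became 6 with a pseudocount of 5, 4 without the low-value filter or with GF numbers 48 to 54 only, 3 with only the groups compared, 1 with array weights and 0 with GF numbers 25 to 33 only. The interaction went from 0 to 1 with a pseudocount of 0.1, a TPM minimum of 5, median of ratios, no Rn45s and histone genes, voom, or the run as a term. With each library left out the members called ranged from 5 to 6 in SPF, 0 to 2 in GF, 1 to 2 between isotype groups, 4 to 6 between aCD3 groups and 0 to 2 for the interaction.

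Over all genes, the number called moved further. It was 7898 in SPF aCD3 against isotype (6242 to 8783 under other settings), 862 in GF (0 to 3636, and 0 to 4213 with a library left out), 874 between isotype groups (204 to 2348), 6496 between aCD3 groups (2 to 6539) and 424 for the interaction (21 to 1824, and 32 to 3187 with a library left out).

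Same-named libraries were not shown to be pairs: their deviations correlated from -0.208 to 0.198. With the replicate name as a block, 5 members passed in SPF, 0 in GF, 2 between isotype groups, 0 between aCD3 groups and 1 for the interaction.

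Signs turned as follows, all for values short of the threshold; the cause was not tested. In SPF, Lef1 (-0.05) was at 0.29 with median of ratios, 0.18 without Rn45s and histone genes and 0.34 with voom, and Klf2 (-0.28) at 0.14 with median of ratios and 0.13 with voom. In GF aCD3, S1pr1 (-0.02) was at 0.14, 0.10 and 0.19 with the same 3 settings, 0.05 without the sex term, 0.04 with array weights, 0.04 and 0.13 within the runs and 0.08 with the run as a term. Foxo1 (-0.16) was at 0.01 with median of ratios and voom, and Bach2 (0.43) at -0.05 within numbers 48 to 54. Between isotype groups, Bach2 (0.01) was at -0.08 with median of ratios, -0.16 with voom, -0.11 with array weights, -0.08 with the block and -0.08 for numbers 25 to 33. Id3 (0.09) was at -0.06, -0.12 and, for numbers 48 to 54, -0.26. Foxo1 (0.06) was at -0.10 with median of ratios and voom and -0.01 with array weights, and Satb1 (0.03) at -0.12, -0.14 and -0.06, and -0.23 for numbers 48 to 54. Between aCD3 groups, Lef1 (-0.11) was at 0.05 for numbers 25 to 33, Bach2 (0.30) at -0.05 with voom and -0.04 for numbers 48 to 54, and Id3 (0.40) at -0.06 there. For the interaction, Klf2 (-0.09) was at 0.00 without the sex term, 0.10 with array weights and 0.12 with the run, and Ccr7 (-0.07) at 0.11 with a pseudocount of 0.1, 0.74 with array weights and 0.08 with the run. With a library left out, Lef1 in SPF ranged from -0.16 to 0.04; in GF, S1pr1 from -0.14 to 0.08 and Tcf7 from -0.52 to 0.04. Between isotype groups, Bach2 ranged from -0.04 to 0.10, Id3 from -0.11 to 0.18, Foxo1 from -0.03 to 0.15 and Satb1 from -0.08 to 0.14. For the interaction, Klf2 ranged from -0.24 to 0.19 and Ccr7 from -0.51 to 0.39.

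Depth limits Id3 most, with 2 to 61 reads per library.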
